A study of Homo sapiens with 6 samples.

Results

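RAB27B encodes a small GTPase of secretory vesicles, and 6 genes that encode its effectors (SYTL1, SYTL2, SYTL5, MLPH, EXPH5 and UNC13D) were found with it among the genes that the study's authors listed as changed. These 7 genes, of 7681 listed, were chosen by name from the targeted Rab and its Slp, Slac2 and Munc13-4 effectors that stood in either of 2 deposited tables. The further Slp gene SYTL4 was also listed but was not among the 7. The tables come from RNA sequencing of HCT116, a human colorectal carcinoma cell line. The wild-type group held 3 samples of unedited HCT116 and the Rab27B KO group 3 samples of HCT116 in which RAB27B was labelled as deleted with CRISPR/Cas9. All 6 samples were untreated and grown for 48 hours in serum-containing medium, and the submitters call the 3 of each genotype biological replicates. Whether the knockout is 1 clone or a pool, and which part of the gene the guide cut, was not found in the labels. The tables give 1 log2 fold change and 1 q-value per gene, with the samples labelled Rab27B KO set over the wild type. Values of single samples were not analysed here, so depth, spread between replicates and standard errors are unknown, and every value below is a description of the authors' comparison with no test added.

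Rab27 proteins cycle between a GTP-bound form on vesicle membranes and a GDP-bound form in the cytosol. In the GTP-bound form they recruit effectors that carry vesicles along actin, dock them at the plasma membrane and prepare them for fusion. RAB27B acts beside its paralog RAB27A in the release of secretory granules and of exosomes, the small vesicles formed inside multivesicular endosomes, and of lysosome-related organelles such as melanosomes. The synaptotagmin-like proteins (Slp) join an N-terminal Rab27-binding region to paired C2 domains that bind membrane lipids. The Slac2 proteins share the Rab27-binding region, and Munc13-4 binds Rab27 without it and primes vesicles for fusion.

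The promoter windows are shown first, because the deposited tables give 1 value per gene whichever start was used. RefSeq promoter windows (GRCh38.p14, 250 bases before to 50 after a start) were matched for 5 of the 7 genes, 10 windows in all. UNC13D and SYTL2 had no matching entry. The windows shown are both starts of RAB27B, the gene with the largest change, and those windows of effectors listed as lower that held a match to the AP-1 motif TGAGTCA or to the E-box CACGTG. Capitals mark matches, on either strand, to TGAGTCA or to the E-boxes CACCTG and CACGTG. Each sequence is written 5′ to 3′ on the strand of the gene.
RAB27B first start, plus strand, chr18:54717607-54717906: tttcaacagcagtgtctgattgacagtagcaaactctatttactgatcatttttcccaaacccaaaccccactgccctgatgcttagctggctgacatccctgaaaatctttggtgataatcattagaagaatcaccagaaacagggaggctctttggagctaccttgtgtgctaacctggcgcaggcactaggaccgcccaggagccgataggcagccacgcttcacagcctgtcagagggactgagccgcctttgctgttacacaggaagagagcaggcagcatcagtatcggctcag
RAB27B second start, plus strand, chr18:54828227-54828526: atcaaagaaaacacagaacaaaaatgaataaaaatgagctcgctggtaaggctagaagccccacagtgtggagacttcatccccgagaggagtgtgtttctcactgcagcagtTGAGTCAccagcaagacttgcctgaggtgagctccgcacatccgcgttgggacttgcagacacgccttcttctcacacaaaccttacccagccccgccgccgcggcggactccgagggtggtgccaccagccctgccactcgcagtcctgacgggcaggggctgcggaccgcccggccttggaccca
SYTL1, plus strand, chr1:27341772-27342071: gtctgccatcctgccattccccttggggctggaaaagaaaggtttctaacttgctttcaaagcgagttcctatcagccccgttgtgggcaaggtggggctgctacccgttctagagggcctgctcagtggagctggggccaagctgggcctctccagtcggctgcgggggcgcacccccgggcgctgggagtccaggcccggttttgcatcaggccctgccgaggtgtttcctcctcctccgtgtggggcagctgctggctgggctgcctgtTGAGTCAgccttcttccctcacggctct
MLPH second start, plus strand, chr2:237487001-237487300: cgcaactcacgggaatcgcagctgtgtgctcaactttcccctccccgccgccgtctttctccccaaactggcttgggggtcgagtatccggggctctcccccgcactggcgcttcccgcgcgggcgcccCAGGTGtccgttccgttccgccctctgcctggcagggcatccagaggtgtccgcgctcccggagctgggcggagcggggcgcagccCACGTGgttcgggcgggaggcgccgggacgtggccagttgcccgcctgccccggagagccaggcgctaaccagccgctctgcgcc
The third start of EXPH5, minus strand, chr11:108538128-108538427: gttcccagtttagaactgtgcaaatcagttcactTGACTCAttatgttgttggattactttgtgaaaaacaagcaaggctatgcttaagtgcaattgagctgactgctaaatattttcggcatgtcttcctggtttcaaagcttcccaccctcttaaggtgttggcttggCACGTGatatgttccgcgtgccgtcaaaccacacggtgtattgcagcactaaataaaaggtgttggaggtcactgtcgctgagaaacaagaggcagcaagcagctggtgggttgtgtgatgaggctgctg

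The starts of RAB27B lie 110.62 kb apart. The first window was 51% G or C with 6 CpG and held none of the 3 motifs. The second was 59% G or C with 17 CpG and held an AP-1 match that begins 137 bases before the start. For comparison, the median of all 35116 windows was 58.7% G or C with 14 CpG. The AP-1 match also occurred 23 bases into the SYTL1 transcript and 216 bases before the third start of EXPH5, so that 3 of the 10 windows held it, against 4.95% of all windows. CACGTG lay 35 bases before the second start of MLPH and 80 bases before the third start of EXPH5, in 2 of the 10 windows, against 7.26% of all. CACCTG was found in 2 of the 10, the second windows of MLPH and EXPH5, against 20.6% of all. No match overlapped another. Both SYTL5 windows were poor in G and C, at 37.7% and 31%, and held none of the 3. The 3 motifs were chosen after the promoters had been read, and the 10 windows come from only 5 genes. These shares are therefore no measure of enrichment. A match is a description of these letters and not evidence of binding. The AP-1 match stood in windows of a gene listed as higher and of 2 listed as lower, and so did not separate the directions.

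The transcript level of the targeted gene ran against its label. RAB27B (gene ID 5874, GRCh38 coordinates chromosome 18, 54717857 to 54895516, plus strand) stood at 5.20 on the log2 scale per the authors' deposited table, which is 36.7 times the wild-type level in samples labelled Rab27B KO. Its q-value is listed as 0. By size of the fold it ranked 12 of 3898 genes listed as higher. It had the highest log2 fold change of the 17 genes with a q-value of 0 per the authors' deposited table. Each direction below compares samples labelled Rab27B KO with those labelled wild type. Exchanged labels, an inverted ratio and a transcript that remains after the edit at a higher level than in the wild type cannot be told apart from these tables. In either of the former cases every direction given here would be turned. RNA does not report the amount of protein. GENCODE release 29 gives RAB27B 4 transcripts, 3 of them coding, with 3 different coding starts spread over 166.5 kb, and the longest coding transcript has 6 exons and 7281 bases. The deposited value does not tell these transcripts apart.

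**Figure D1:**
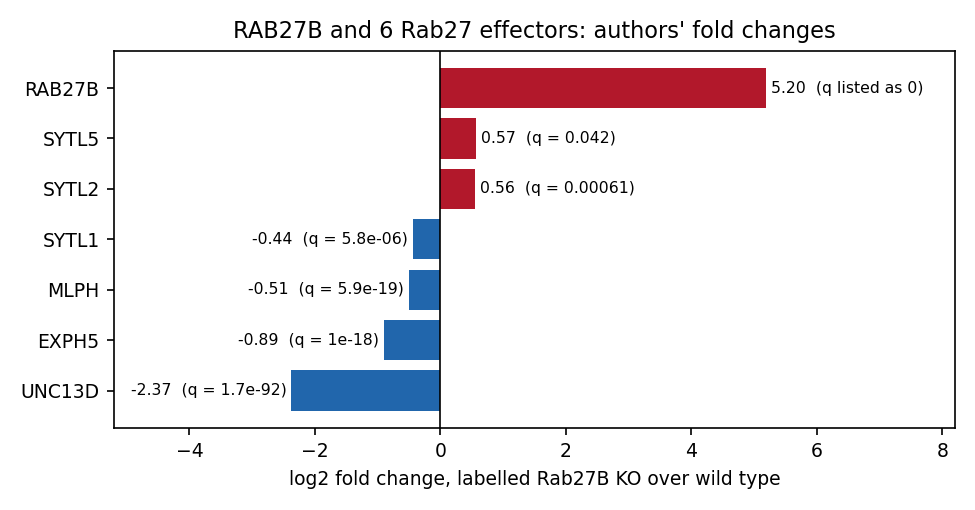
Log2 fold change between samples labelled Rab27B KO and wild type (x axis) for RAB27B and 6 effector genes (y axis), with the q-value of each as listed by the authors. Each bar is 1 deposited value and carries no error. RAB27B stands at 5.20, SYTL5 and SYTL2 just above 0.5, and the other 4 effectors between -0.44 and -2.37.

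The size of the RAB27B value set it apart less than its q-value did. The 4 listed genes nearest to it in log2 fold change per the authors' deposited table were CALB1 at 5.36, CXCL11 at 5.24, CXCR1 at 5.15 and DLK1 at 5.08, within 0.157 of RAB27B over this single comparison. Their q-values per the authors' deposited table were 8.65e-04, 0.00128, 0.00213 and 5.54e-04. Among the 100 genes nearest to RAB27B in log2 fold change, from 2.41 to 6.31, 2 others had a q-value listed as 0 and the median q-value was 5.63e-06. How many reads lie behind these values is unknown.

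Reads shared with other genes could touch a value, so the transcripts were compared. Of 7525 different stretches of 50 bases in the RAB27B transcripts of GENCODE release 29, 243 (3.23%) also occurred in transcripts of another gene. All 243 were in AC098848.1, whose span overlaps that of RAB27B. No such stretch was shared between RAB27B and RAB27A. RAB27A was in neither table, so its value is not analysed here. For the 6 effectors the shared portion ran from 0% for SYTL5 to 3.78% for SYTL1. SYTL5 overlaps 1 gene annotated as coding, AF241726.2. Whether the counting used strand was not found in the labels.

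The effectors were listed in both directions, each with a smaller change than RAB27B. Of the 6, 4 were listed as lower and 2 as higher per the authors' deposited table, where 49.3% of all listed genes were lower and 50.7% higher. Since presence in the tables chose these genes, the split is a description. Their median log2 fold change was -0.47 and the median of all listed genes was 0.12. The median absolute log2 fold change was 0.56 for the 6 effectors and 0.41 for all listed genes. Only 1 of the 6, UNC13D, reached an absolute log2 fold change of 1, as did 12.6% of all listed genes (6.11% higher and 6.5% lower). A q-value below 0.01 was listed for 5 of the 6 effectors and for 84.9% of all listed genes, and one below 0.001 for the same 5 and for 70.0%.

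Among the Slp genes of the 7, SYTL2 and SYTL5 were higher and SYTL1 was lower. SYTL2 (gene ID 54843, chromosome 11, 85694229 to 85854870, minus strand) encodes Slp2, which docks Rab27-bearing vesicles at the plasma membrane. It was 1.47-fold higher per the authors' deposited table, or 0.56 on the log2 scale with q = 6.06e-04. SYTL2 is annotated with 20 coding transcripts from 19 different starts, the most of the 7 genes, which a gene-level value cannot tell apart. SYTL5 (gene ID 94122, chromosome X, 37888915 to 38128820, plus strand) encodes Slp5 and was 1.48-fold higher per the authors' deposited table, or 0.57. on the log2 scale Its q-value of 0.0420 was the closest of the 7 to the 0.05 limit of the tables, and genes just beyond that limit are not analysed here. SYTL1 (gene ID 84958, chromosome 1, 27342022 to 27353932, plus strand) encodes Slp1, also called JFC1, and was 1.35-fold lower per the authors' deposited table, or -0.44 on the log2 scale with q = 5.77e-06.

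SYTL2 and SYTL5 had folds alike in size and q-values far apart. Among the 100 genes nearest in log2 fold change in the same deposited table, 88 had a smaller q-value than SYTL2 and 99 a smaller one than SYTL5. The median q-value of those neighbours in fold was 1.98e-12 for SYTL2 and 1.54e-10 for SYTL5. For SYTL1, 69 of the 100 nearest had a smaller q-value. SYTL1, SYTL2 and SYTL5 therefore stood on the weaker side of genes with similar folds. The listed Slp gene SYTL4 was not compared in this way.

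Both chosen Slac2 genes, EXPH5 and MLPH, were lower. EXPH5 (gene ID 23086, chromosome 11, 108505435 to 108607536, minus strand) encodes Slac2-b, or exophilin-5, a protein of exosome release and of keratinocyte vesicle traffic. In the authors' deposited table it was 1.86-fold lower, or -0.89 on the log2 scale with q = 1.01e-18. MLPH (gene ID 79083, chromosome 2, 237486410 to 237555322, plus strand) encodes melanophilin (Slac2-a), which ties Rab27A on melanosomes to the motor myosin Va. It was 1.42-fold lower per the authors' deposited table, or -0.51 on the log2 scale with q = 5.87e-19. The fold of EXPH5 was thus larger than that of MLPH at nearly the same q-value. Of the 100 genes nearest in log2 fold change in the same deposited table, 26 had a smaller q-value than EXPH5 and 8 a smaller one than MLPH.

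UNC13D had the largest change among the effectors. It encodes Munc13-4, which primes secretory lysosomes and granules for fusion and whose loss in people causes a familial form of hemophagocytic lymphohistiocytosis. UNC13D (gene ID 201294, chromosome 17, 75827225 to 75844404, minus strand) was 5.18-fold lower per the authors' deposited table, or -2.37 on the log2 scale with q = 1.69e-92. It ranked 145 by size of the fold and 41 by q-value among 3783 genes listed as lower. Of the 100 genes nearest to it in log2 fold change, 13 had a smaller q-value. Its longest coding transcript has 32 exons and 4393 bases, and no other annotated gene overlaps its span.

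**Figure D2:**
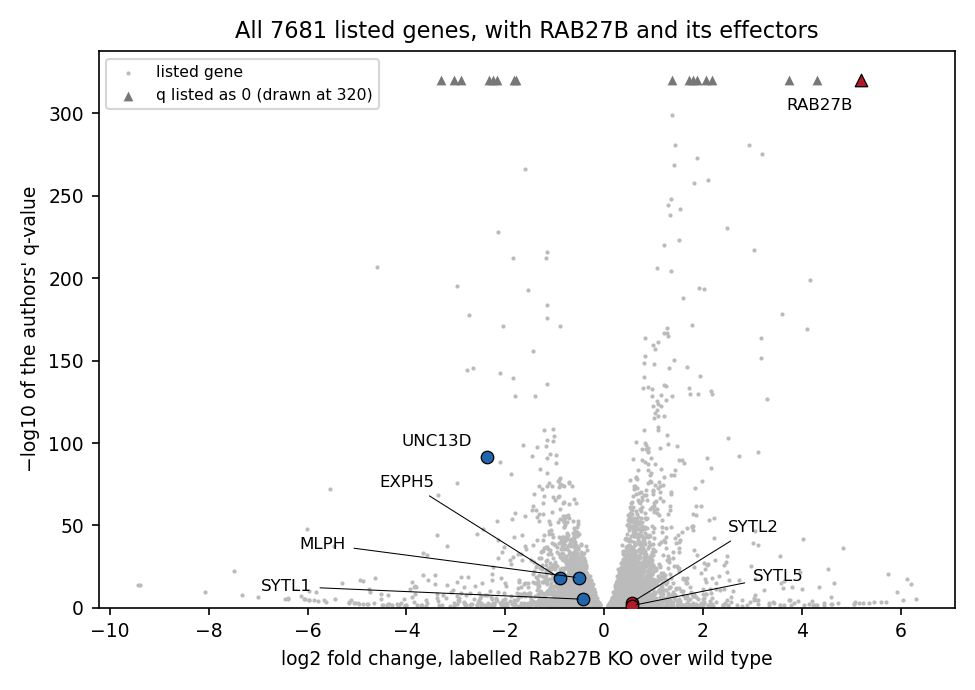
Log2 fold change (x axis) against -log10 of the authors' q-value (y axis) for all 7681 listed genes, as grey points. Triangles at the top are the 17 genes with a q-value listed as 0, and the 7 named genes are coloured red where higher and blue where lower. RAB27B is the rightmost triangle, UNC13D lies well to the left, and SYTL2 and SYTL5 lie at the bottom edge of the cloud.

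The balance of the effectors depended on which of them were counted. In a wider list of 11 known Rab27 effectors 8 were listed, 4 higher and 4 lower, with a median log2 fold change of -0.03 per the authors' deposited table. Over all listed genes 50.7% were higher. The genes this adds are SYTL4, which encodes granuphilin (Slp4), and RPH3AL, which encodes Noc2, a binder of Rab3 and Rab27. SYTL4 was 1.30-fold higher (q = 0.0112) and RPH3AL 1.35-fold higher (q = 1.32e-04) per the authors' deposited table. SYTL3, MYRIP (Slac2-c) and RPH3A were in neither table. For scale, 37.9% of 20052 protein-coding genes in the RefSeq table were listed, a share that includes genes these cells may not express.

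Genes that run the Rab27 GTPase cycle changed little. Of 11 such genes 8 were listed, 5 higher and 3 lower, with a median log2 fold change of 0.25 per the authors' deposited table. Over all listed genes 50.7% were higher and the median was 0.12, and 37.9% of protein-coding genes were listed. TBC1D10A, which encodes the Rab27 GTPase-activating protein EPI64, was 1.52-fold higher (q = 1.47e-11) per the authors' deposited table. GDI2, which extracts GDP-bound Rabs from membranes, was 1.10-fold lower (q = 0.00839) per the authors' deposited table. RABGGTA and RABGGTB, the subunits of the enzyme that attaches the lipid anchor to Rabs, were 1.24-fold (q = 2.49e-04) and 1.28-fold higher (q = 1.83e-05) per the authors' deposited table. CHML, the Rab escort protein REP2, was 1.43-fold lower (q = 2.90e-06) and MADD, an exchange factor that loads Rab27 with GTP, 1.16-fold lower (q = 0.00287) per the authors' deposited table. DENND10, printed there under its older symbol FAM45A, was 1.13-fold higher (q = 0.0140) per the authors' deposited table. RAB27A, TBC1D10B and CHM were in neither table.

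Of the motors and adaptors that effectors engage, 8 of 9 genes were listed, 5 higher and 3 lower. For scale, 50.7% of all listed genes were higher, and 37.9% of protein-coding genes were listed. MYO5A, the myosin Va that melanophilin binds, was 1.33-fold higher (q = 1.46e-08) per the authors' deposited table, whereas MLPH itself was lower. MYO5C, a myosin V of epithelial secretory cells, was 1.57-fold lower (q = 6.05e-24), and MYO7A, a partner of the effector MYRIP, was 1.76-fold lower (q = 3.80e-06) per the authors' deposited table. DPYSL2 (CRMP2), which links Slp1 and RAB27B to kinesin in neurons, was 1.27-fold higher (q = 1.59e-10) per the authors' deposited table.

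Of 24 docking and fusion genes 11 were listed as higher and 2 as lower, and 11 were in neither table. Of protein-coding genes 37.9% were listed. The 13 listed had a median log2 fold change of 0.42 per the authors' deposited table, against 50.7% higher and a median of 0.12 over all listed genes. The SNARE genes VAMP3 and STX2 were 1.38-fold (q = 2.38e-19) and 1.52-fold higher (q = 2.32e-17) per the authors' deposited table. SYT7, a calcium sensor of lysosome exocytosis, was 1.46-fold lower (q = 1.32e-31) per the authors' deposited table. The largest change of the list was in STX11, a syntaxin that works with Munc13-4 in cytotoxic granule release, at 4.80-fold higher (q = 1.71e-15) per the authors' deposited table. STX11 was chosen after its value was seen.

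**Figure D3:**
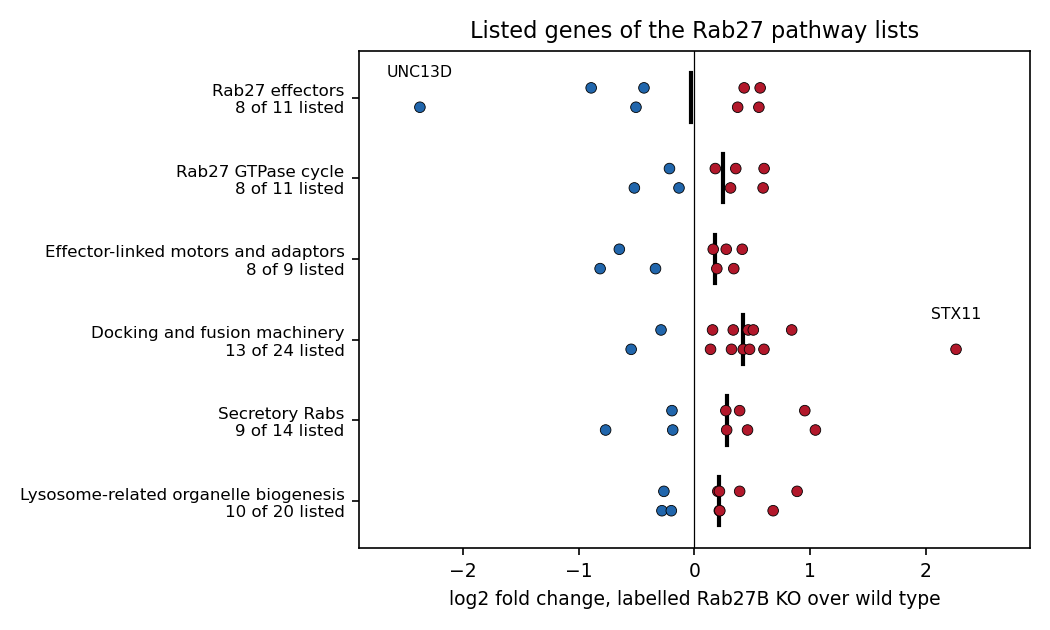
Log2 fold change between samples labelled Rab27B KO and wild type (x axis) for the listed genes of 6 pathway lists (y axis, with the number listed of the number in each list). Each point is 1 gene, red where higher and blue where lower, and the black line is the median of the list, which runs from -0.03 for the effectors to 0.42 for the docking and fusion genes.

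The other secretory Rabs and the genes of lysosome-related organelles were listed in both directions. Of 14 secretory Rabs 9 were listed, 6 higher and 3 lower, where 50.7% of all listed genes were higher. For both lists of this paragraph the scale is 37.9% of protein-coding genes listed. RAB3A, RAB26 and RAB3B, Rabs of regulated secretion, were 2.07-fold (q = 9.27e-25), 1.94-fold (q = 4.23e-22) and 1.38-fold higher (q = 3.58e-21), and RAB25 was 1.70-fold lower (q = 9.56e-44) per the authors' deposited table. None of them came near the 36.7-fold of RAB27B. Of 20 genes of lysosome-related organelle biogenesis 10 were listed, 7 higher and 3 lower. Their median log2 fold change was 0.22 per the authors' deposited table. At a q-value below 0.01 there were 4 higher and 3 lower, and 84.9% of all listed genes passed that limit. AP3S1, a subunit of the AP-3 adaptor, was 1.85-fold higher (q = 6.05e-88) per the authors' deposited table. BLOC1S2, LYST and AP3M1 were 1.31-fold (q = 4.64e-06), 1.60-fold (q = 1.28e-05) and 1.16-fold higher (q = 3.03e-05) per the authors' deposited table.

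The listed genes around each member differed from member to member. Distances are between the lower coordinates of the genes, and neighbours are listed genes within 1 Mb. RAB27B had 3 listed neighbours among 7 protein-coding genes, 2 higher and 1 lower. The nearest on either side were CCDC68, 183.7 kb away and 3.42-fold higher (q = 1.25e-50), and POLI, 448.4 kb away and 1.81-fold lower (q = 5.91e-10) per the authors' deposited table. UNC13D lies in a gene-dense stretch with 35 listed neighbours, 18 higher and 17 lower. Next to UNC13D, WBP2 was 1.38-fold higher (q = 4.98e-36) and UNK 1.26-fold lower (q = 2.47e-09) per the authors' deposited table, so neither gene beside UNC13D had a change near its 5.18-fold.

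For SYTL5, MLPH and EXPH5 the listed neighbours, few in number, mostly had the direction of the member. For scale, 50.7% of all listed genes were higher and 49.3% lower. On the chromosomes of these members 55.8% (X, SYTL5), 53.4% (2, MLPH) and 47.5% (11, EXPH5) of listed genes were higher. All 6 listed neighbours of SYTL5 were higher, with a median log2 fold change of 0.57, the same to 2 decimals as that of SYTL5 per the authors' deposited table. They included DYNLT3 and SRPX on either side, which were 1.72-fold (q = 1.83e-24) and 1.52-fold higher (q = 6.15e-14) per the authors' deposited table. Of the 10 listed neighbours of MLPH 7 were lower, with a median of -0.37. RAB17, an epithelial Rab gene 87.9 kb from MLPH, was 1.78-fold lower (q = 1.78e-16), and COPS8 on the other side was 1.26-fold higher (q = 1.11e-06) per the authors' deposited table. EXPH5 had 4 listed neighbours, 3 of them lower, with KDELC2 nearest at 1.19-fold lower (q = 7.46e-04) per the authors' deposited table. Whether gene copy number or another regional change moved with these values was not tested.

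SYTL1 was lower, while 18 of its 25 listed neighbours were higher, among them TMEM222 and MAP3K6 on either side, each 1.16-fold higher (q = 0.00424 and 0.00537) per the authors' deposited table. SYTL2 had only 2 listed neighbours within 1 Mb, 1 in each direction, with PICALM 1.20-fold higher (q = 5.14e-07) and CREBZF 1.53-fold lower (q = 4.17e-12) per the authors' deposited table. The count for SYTL2 depended on the window. Within 100 kb its only listed neighbour, CREBZF, was lower. Within 5 Mb 8 of 10 listed genes were higher, with a median log2 fold change of 0.25. The share higher over all listed genes was 50.7%. Over whole chromosomes, the portion of listed genes that were higher ran from 47.5% on chromosome 11 to 58.2% on chromosome 1 for the chromosomes that carry the 7 genes.

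**Figure D4:**
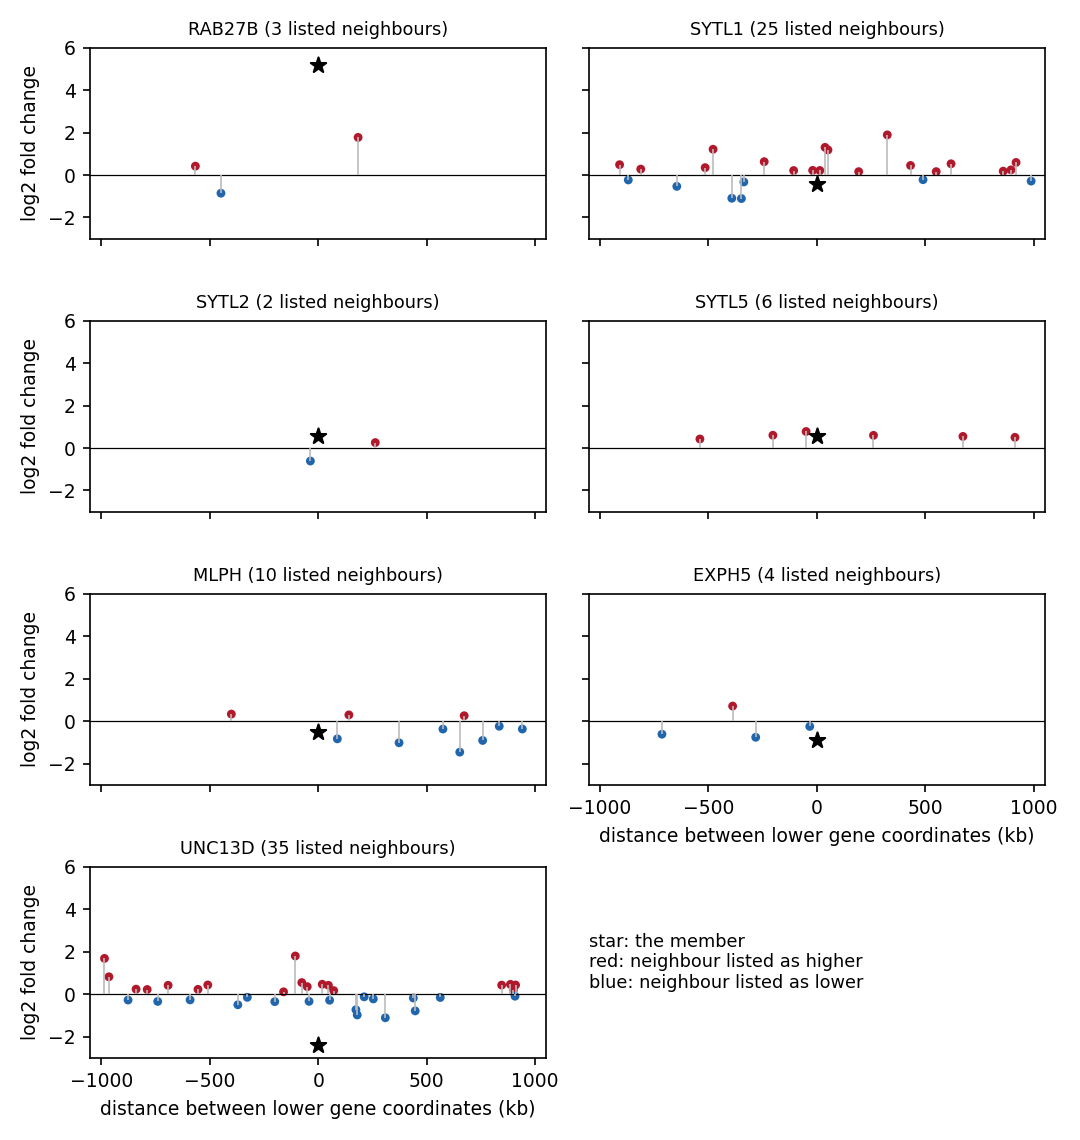
Log2 fold change of listed genes (y axis) against their distance in kb from each of the 7 members (x axis, between lower gene coordinates), with 1 panel per member. The star is the member, red points are neighbours listed as higher and blue points neighbours listed as lower. The 6 neighbours of SYTL5 all lie above 0, and those of UNC13D lie on both sides while UNC13D itself stands at -2.37.

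Markers of the labelled cell type and of others were read only as fold changes, since levels were not analysed here. The share higher over all listed genes was 50.7%, and 37.9% of protein-coding genes were listed. Of 11 markers of colon carcinoma epithelium 6 were listed, 3 higher and 3 lower, with EPCAM 2.23-fold lower (q = 2.78e-184), CDH1 2.22-fold lower (q = 1.06e-102) and KRT18 1.39-fold higher (q = 8.30e-54) per the authors' deposited table. Of 6 melanocyte markers, cells in which MLPH acts, PMEL and MITF were listed, 1.37-fold (q = 0.0118) and 1.52-fold higher (q = 0.0227) per the authors' deposited table, while MLPH was lower. Of 10 leukocyte markers 3 were listed, with PRF1 6.66-fold lower (q = 1.33e-178), CD68 3.51-fold higher (q = 1.31e-35) and LYZ 2.53-fold higher (q = 0.00111) per the authors' deposited table. Among 7 markers of fibroblasts and endothelium COL3A1 was 3.41-fold higher (q = 6.57e-09) and COL1A1 1.32-fold lower (q = 2.59e-05) per the authors' deposited table. The part of other cells in the values of the 7 genes was not tested.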

How the data were processed

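RNA from 6 HCT116 cultures was sequenced on the DNBSEQ platform, per the labels' protocols. The submitters' processing notes name HISAT, Bowtie2 and GRCh38 without a role; how reads were counted, scaled and tested is not given in the sources used. Per the file headers, the 2 deposited tables give the authors' log2 fold change, with Rab27B KO over wild type, and a q-value for each gene. For higher genes the authors' linear ratio is deposited too, and matches the log2 column to a relative 4.53e-10. Every q-value is below 0.05, so genes that missed this limit, and the number tested, are not known here. Folds of lower genes were computed from the log2 values.

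No test was run, because the tables hold no value per sample. The 7 genes and the gene lists were chosen with earlier results of these data known, and the 3 motifs also after the promoters had been read. Named genes were the 7, every listed effector and GTPase-cycle gene, up to 4 genes per other pathway list and up to 3 per marker list with the smallest q-value, the 2 genes on either side of RAB27B in log2 fold change, and the nearest listed gene on each side of each member. A few genes that this rule would name are not reported here. Gene IDs were matched to RefSeq GRCh38.p14 (7655 of 7681 placed on a chromosome) and transcripts to GENCODE release 29. The search for the AP-1 motif found copies placed in simulated sequences. Those sequences were made only of A and C, so the motif could not arise in them by chance. The E-box searches were not tested in this way. Alternatives were stricter q-values, a minimum fold, matching by gene ID, median centring and other windows. Python 3.11.15 and pandas 2.3.3 were used.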

Additional observations from a re-analysis of the deposited data

How the results depend on the processing

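No paired analysis was possible because the tables hold no value per sample, and for the same reason no replicate could be left out. The direction of the 7 genes could not change under either centring, so these values show only sizes. The largest subtracted median was 0.20 (chromosome 1), and the member value nearest to zero was -0.44 (SYTL1). After subtraction of the median of all listed genes (0.12), the log2 fold changes were 5.08 for RAB27B, -0.56 for SYTL1, 0.44 for SYTL2, 0.45 for SYTL5, -0.63 for MLPH, -1.01 for EXPH5 and -2.50 for UNC13D. With the median of the same chromosome subtracted they were 5.07, -0.64, 0.71, 0.37, -0.66, -0.74 and -2.55 in the same order. Of the 6 effectors, 1 was higher at a q-value below 0.01 and 1 at a q-value below 0.001, since SYTL5 missed both, and the 4 lower ones passed both. Of all listed genes 84.9% had a q-value below 0.01 and 70.0% one below 0.001. At an absolute log2 fold change of at least 1, 0 effectors were higher and 1 lower. At that fold 6.11% of all listed genes were higher and 6.5% lower, which is also the scale for the pathway lists below. With the list of 11 effectors, an alternative added after the data were seen, 4 were higher and 4 lower; at a q-value below 0.01, 2 of these were higher and 4 lower. At that q-value 4 genes of lysosome-related organelles were higher, in place of 7, and 3 lower. At an absolute log2 fold change of at least 1 the pathway lists had 1 higher and 0 lower among docking and fusion genes, 1 higher and 0 lower among secretory Rabs, 0 higher and 1 lower among the 11 effectors, and 0 in either direction in the other 3 lists. Of the listed neighbours of all 7 genes 57.6% were higher within 1 Mb, 66.7% within 100 kb and 55.8% within 5 Mb. The share over all listed genes was 50.7%. Depth and spread between replicates are unknown, so how precisely any fold was measured is not known. A q-value also depends on the size of the fold and does not give that precision by itself.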

Other observations

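Genes that act with Munc13-4 in the release of cytotoxic granules were listed in both directions. This group was put together after the values were seen. Of 7 such genes 5 were listed, 3 higher and 2 lower, where 50.7% of all listed genes were higher and 49.3% lower. Of protein-coding genes 37.9% were listed. PRF1, which encodes the pore-forming protein perforin of those granules, was 6.66-fold lower (q = 1.33e-178) and UNC13D 5.18-fold lower (q = 1.69e-92) per the authors' deposited table. STX11 was 4.80-fold higher (q = 1.71e-15) and LYST, a regulator of lysosome size, 1.60-fold higher (q = 1.28e-05) per the authors' deposited table. STXBP2 (Munc18-2), the partner of STX11, was 1.10-fold higher (q = 0.0127) per the authors' deposited table. RAB27A and AP3B1 were in neither table. PRF1 is a gene of cytotoxic lymphocytes, and among other lymphocyte markers CD3E, GZMB and NKG7 were in neither table.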
